A study of Homo sapiens with 6 samples.

Results

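The genes described here encode the partners through which YAP1 acts on DNA: WWTR1, the gene of the YAP1 paralog TAZ; the TEAD transcription factors TEAD1, TEAD2, TEAD3 and TEAD4; and the vestigial-like cofactors VGLL3 and VGLL4. These 7 genes were chosen by name, for their place in the pathway, among the 60612 gene identifiers that were listed. RNA came from MDA-MB-231 cells, an established human triple-negative breast cancer (TNBC) line. The cells stably expressed either a control short hairpin RNA (Sh-NC, genotype given as WT) or one that targets YAP1 (Sh-YAP1, genotype given as YAP1 knockdown). Each group had 3 libraries, taken at day 3 with no other treatment. One hairpin name is given per group, and the labels do not say whether the 3 libraries of a group came from separate cultures, so the p-values measure the spread between these libraries, which may be technical.

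YAP1 and TAZ carry no DNA-binding domain. When the Hippo kinases leave them unphosphorylated they enter the nucleus and bind a TEAD protein, which places them at enhancers and promoters and switches on genes for growth, adhesion and matrix. VGLL proteins bind the same face of TEAD through short Tondu motifs. VGLL4 is known as a competitor of YAP1 and TAZ that lowers the output of TEAD, whereas VGLL1, VGLL2 and VGLL3 are mostly described as tissue-restricted activators. The comparison of Sh-YAP1 with Sh-NC asks which of these partners the cells expressed and whether their RNA changed when YAP1 was reduced.

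Expression was given by the authors as FPKM, the fragments scaled to transcript length and to the mapped fragments of the library, with 1 value per transcript. The values of all transcripts of a gene were summed to a gene value. Because FPKM is scaled to transcript length, levels of different genes can be set side by side. The depth of the libraries is unknown, so no interval for counting error is given. All libraries carried the profile of the line: VIM, CD44, EGFR, AXL and KRT18 lay between 48.55 and 2303 FPKM, ESR1, PGR and CDH1 did not exceed 0.49 FPKM, and the blood marker PTPRC did not exceed 0.04 FPKM. ERBB2, between 14.3 and 18.1 FPKM, and EPCAM, between 2.43 and 3.27 FPKM, were present in every library. Of the markers of other cells, ALB was 1.49 to 1.79 FPKM with Sh-NC, 1.25 FPKM in one Sh-YAP1 library and 0 in the others (adjusted p = 0.141, limma), PECAM1 was 0.76 to 1.70 FPKM, and the sum of these markers was 2.55 to 3.19 FPKM with Sh-NC and 0.8 to 2.79 FPKM with Sh-YAP1. Their part in the results was not tested. Gene values on the log2(FPKM + 1) scale correlated across genes at 0.978 to 0.982 within a group and at 0.971 to 0.976 between groups.

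YAP1 itself was 28.1, 26.2 and 22.9 FPKM in the Sh-NC libraries and 3.35, 2.67 and 2.58 FPKM in the Sh-YAP1 libraries, a log2 fold change of -2.79 (standard error 0.12, limma adjusted p = 0.0018, exact permutation p = 0.1). The level of the targeted gene matched the label in all 6 libraries. Adjusted p-values here are from limma on log2(FPKM + 1) with Benjamini-Hochberg adjustment over the 14770 genes whose mean was at least 0.5 FPKM, and a gene was called at an adjusted p under 0.05. Of the 7 partner genes, 6 were tested and VGLL3 was too low. The single partner called was VGLL4, which was higher in Sh-YAP1. Among all genes tested 3.38% were called, 1.75% as higher and 1.62% as lower in Sh-YAP1, and 1 of 6 is too few to compare with these shares.

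VGLL4, the competitor of YAP1 and TAZ for TEAD, carried the clearest difference. Its RNA can begin at several sites, and because the deposited values do not name transcripts, which start each value belongs to is not known. GENCODE 29 lists 19 transcripts with 19 starts, as many transcripts as have values here. The 5 start sites in the RefSeq set used here are shown as examples of where the RNA can begin. Each run holds the 50 bases before the start site in lower case and the first transcribed base as a capital, 5′ to 3′ on the minus strand of chromosome 3 (build GRCh38.p14).
VGLL4 start at 11720539: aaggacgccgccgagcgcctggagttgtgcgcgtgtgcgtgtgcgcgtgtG
VGLL4 start at 11643915: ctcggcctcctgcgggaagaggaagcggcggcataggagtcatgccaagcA
VGLL4 start at 11604581: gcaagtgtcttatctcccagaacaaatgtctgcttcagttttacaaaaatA
VGLL4 start at 11582356: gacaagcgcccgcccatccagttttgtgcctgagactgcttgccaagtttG
VGLL4 start at 11568798: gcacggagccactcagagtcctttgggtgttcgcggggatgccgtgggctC
The 5 starts are spread over 151741 bases. The 250 bases before each were searched for GGAATG, the core that TEAD proteins bind, and for CATTCC, the same letters on the other strand. Neither stood in any of the 5 windows, nor in the other 6 windows that the RefSeq set used here held for WWTR1, TEAD2, TEAD3 and VGLL3. That set held no window for TEAD1 and TEAD4, which were therefore not searched. Of all 35116 windows of this length, 11.9% held one of them. The partner genes had 11 windows, too few to compare with this share. Sites further away, or before other starts, were not searched, so no conclusion on TEAD binding is drawn. The window of YAP1 held GGAATG, at position -162 relative to its start. The match is printed in capitals for comparison (chr11:102110265-102110310, plus strand).
YAP1 upstream match: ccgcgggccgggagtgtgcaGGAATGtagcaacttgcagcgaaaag

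VGLL4 (ENSG00000144560, minus strand of chromosome 3, 11556070 to 11771350 on GRCh38) was 15.2, 18.7 and 13.5 FPKM across Sh-NC libraries 1 to 3. In Sh-YAP1 replicates 1 to 3 it was 35.5, 34.6 and 38.2 FPKM. Every Sh-YAP1 library lay above every Sh-NC library (29.4% of all genes tested did not overlap between the groups), the lowest Sh-YAP1 value being 34.6 and the highest Sh-NC value 18.7 FPKM. The mean was 15.8 ± 2.65 FPKM with Sh-NC and 36.1 ± 1.86 FPKM with Sh-YAP1 (n = 3 each, SD), so that it rose by a ratio of 2.28. The log2 fold change was 1.15 (standard error 0.12, 95% interval 0.86 to 1.44, adjusted p = 0.0113 from limma). Of the 14770 genes tested, 34 had a larger rise. By exact permutation of the library labels (two-sided) p was 0.1, the lowest value possible with 3 libraries against 3. VGLL4 was called under 14 of 18 alternatives. Among those that ended the call was leaving out Sh-NC replicate 1, where the log2 fold change was 1.13 and the adjusted p from limma 0.0581. Another was leaving out the most changed transcript, which took the log2 fold change to 0.15 (adjusted p = 0.998, limma).

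The rise sat unevenly among the transcripts of VGLL4. Of 19 transcripts listed, 5 had a mean of at least 0.1 FPKM and were tested. The transcript with the highest mean, which held 49.3% of the FPKM of the gene, was 8.68, 0 and 0.05 FPKM across Sh-NC libraries 1 to 3 and 22.8, 22.6 and 22.6 FPKM across Sh-YAP1 libraries 1 to 3. It was near 0 in 2 control libraries, clearly present in the other control library, and at almost one level in the 3 knockdown libraries. The second transcript, with 28.4% of the FPKM, was 3.07, 12.4 and 11.6 FPKM with Sh-NC and 5.68, 5.54 and 5.94 FPKM with Sh-YAP1. In the control library where the first was present, the second was low. Added together, these 2 transcripts were 11.8, 12.4 and 11.6 FPKM with Sh-NC and 28.5, 28.1 and 28.5 FPKM with Sh-YAP1, means of 11.9 ± 0.40 and 28.4 ± 0.23 FPKM (SD, n = 3 each). Among the Sh-NC libraries the sum had a smaller SD than either transcript (4.997 and 5.146 FPKM), which was not so among the Sh-YAP1 libraries. For the sum the log2 fold change was 1.19 (adjusted p = 0.0146, limma), a comparison chosen after the values were seen. The next transcript, with 18.5% of the FPKM, was 2.72, 4.63 and 1.59 FPKM with Sh-NC and 6.07, 5.28 and 8.50 FPKM with Sh-YAP1, without overlap between the groups.

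Taken one by one, no VGLL4 transcript was called. Of all 77655 transcripts tested, 0.0515% were called and 13.1% did not overlap between the groups. The first VGLL4 transcript had a log2 fold change of 3.45 (standard error 0.90, adjusted p = 0.590 from limma over all transcripts), and without it the remaining VGLL4 transcripts summed to 12.9 ± 6.08 FPKM with Sh-NC and 13.4 ± 1.91 FPKM with Sh-YAP1 (SD, n = 3 each). Most of the rise of the gene value lay in the first transcript, whose level was not stable among the control libraries. The lengths by which the transcripts were scaled are not part of the values, and what a shift of fragments between transcripts of different length adds to the gene value was not tested. ATG7, an autophagy gene on the opposite strand that overlaps the end of VGLL4, was 9.62 FPKM with Sh-NC and 10.6 FPKM with Sh-YAP1 on average (log2 fold change 0.14, adjusted p = 0.632, limma). The other genes that overlap VGLL4 did not exceed 0.04 FPKM.

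**Figure D1:**
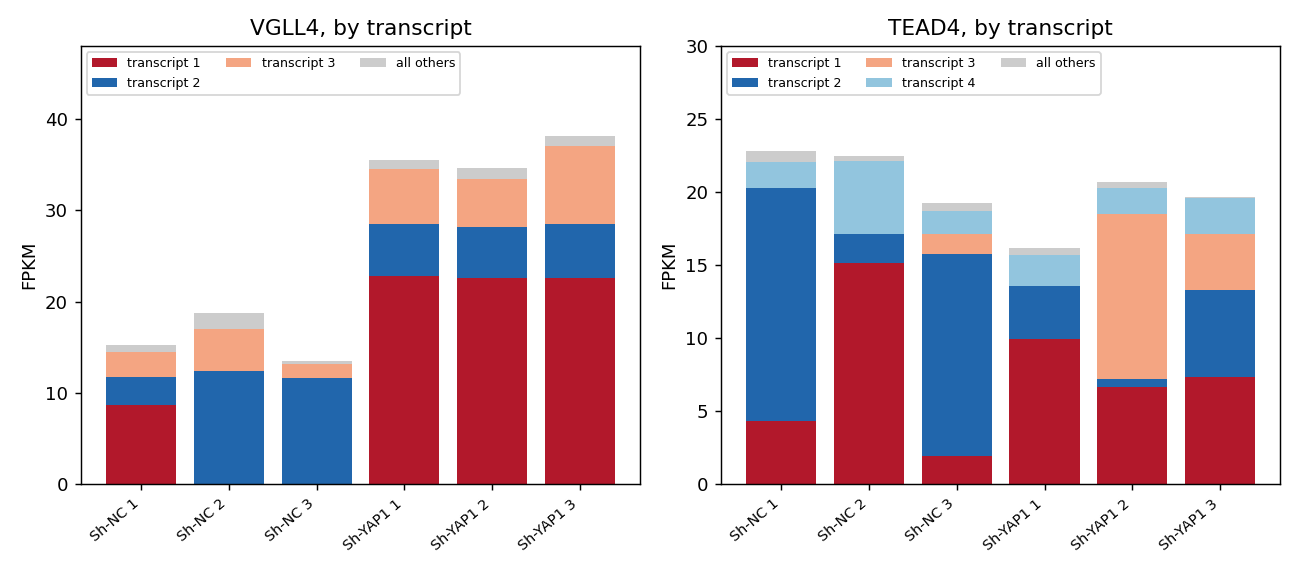
FPKM of VGLL4 (left) and TEAD4 (right) in each library, stacked by transcript, with transcripts numbered by their mean over the 6 libraries and the remaining ones in grey. VGLL4 transcript 1 stands at 22.6 to 22.8 FPKM in the 3 Sh-YAP1 libraries and at 8.68 FPKM or less in Sh-NC, while TEAD4 totals stay between 16.2 and 22.8 FPKM as their make-up differs from library to library.

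WWTR1 encodes TAZ, which shares the TEAD partners of YAP1. WWTR1 (ENSG00000018408, minus strand of chromosome 3, 149517235 to 149736714 on GRCh38) was the most abundant of the 7 genes in every library. It was 42.2, 41.9 and 42.5 FPKM across Sh-NC libraries 1 to 3 and 52.1, 46.8 and 47.2 FPKM across Sh-YAP1 libraries 1 to 3. The groups did not overlap, which was so for 29.4% of all genes tested, and 21.9% of all genes had an unadjusted p under 0.05 (limma). The means were 42.2 ± 0.33 and 48.7 ± 2.96 FPKM (SD, n = 3 each). The log2 fold change was 0.20 (standard error 0.07, 95% interval 0.03 to 0.37), which missed the threshold (adjusted p = 0.164 from limma, exact permutation p = 0.1). Read as a ratio on the scale of FPKM + 1, the interval runs from 1.02 to 1.29, and the mean difference was 6.48 FPKM, against -22.9 FPKM for YAP1. One transcript held 94.5% of the WWTR1 FPKM, so for this gene the sum and the leading transcript were nearly the same measure. The genes that overlap WWTR1 were low, with no value above 1.24 FPKM.

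TAZ RNA thus made up a different part of the YAP1 and TAZ pool in the 2 groups. WWTR1 was 59.99%, 61.47% and 65.03% of the summed YAP1 and WWTR1 FPKM across Sh-NC libraries 1 to 3, and 94.0%, 94.6% and 94.8% in Sh-YAP1 replicates 1 to 3. The pool itself was 70.3, 68.1 and 65.4 FPKM with Sh-NC and 55.4, 49.4 and 49.8 FPKM with Sh-YAP1. Its mean in Sh-YAP1 was 0.759 of that in Sh-NC. Pool and share depend on YAP1, the targeted gene, and are given as descriptions with no test.

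**Figure D2:**
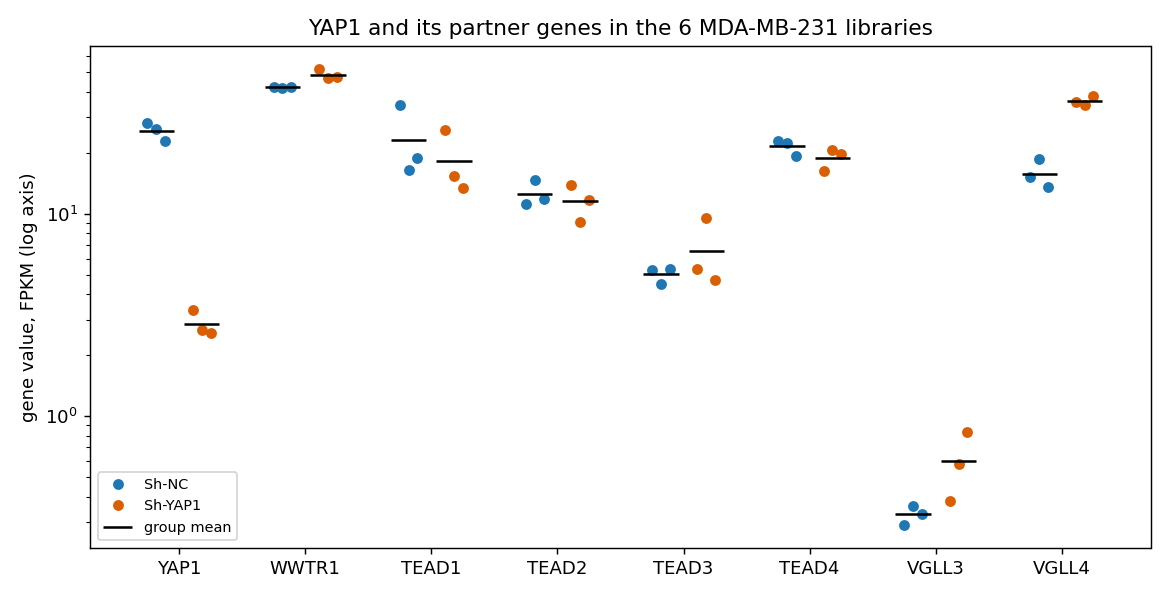
Gene values in FPKM on a log axis for YAP1 and its 7 partner genes, with 1 point per library (3 Sh-NC in blue, 3 Sh-YAP1 in orange) and the group mean as a black line. The groups lie apart for YAP1, WWTR1, VGLL3 and VGLL4 and overlap for the 4 TEAD genes. Among all genes tested, 29.4% did not overlap between the groups.

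All 4 TEAD genes, which encode the DNA-binding partners, were expressed, and none was called. TEAD1 (ENSG00000187079, plus strand of chromosome 11, 12674591 to 12944483 on GRCh38) was 34.6, 16.4 and 18.8 FPKM with Sh-NC and 26.1, 15.4 and 13.4 FPKM with Sh-YAP1. One library in each group stood above the other two. The means were 23.3 ± 9.88 and 18.3 ± 6.80 FPKM (SD, n = 3 each), and the log2 fold change was -0.31 (95% interval -1.12 to 0.49, adjusted p = 0.633, limma). This interval was the widest of the 4 TEAD genes, and it allows a fall to 0.461 as well as a rise to 1.402 times. Without Sh-NC replicate 1 the log2 fold change was -0.0015, and without Sh-YAP1 replicate 1 it was -0.59. The spread came from the leading TEAD1 transcript, which was 24.3, 7.11 and 12.4 FPKM with Sh-NC and 22.04, 10.4 and 9.08 FPKM with Sh-YAP1. The second TEAD1 transcript was 6.33, 4.10 and 2.44 FPKM with Sh-NC and 1.96, 1.63 and 1.61 FPKM with Sh-YAP1, without overlap, and 3 of the 6 TEAD1 transcripts were separated in this direction, beside 13.1% of all transcripts tested that did not overlap in either direction. None of them was called (lowest adjusted p = 0.711, limma).

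TEAD4 (ENSG00000197905, plus strand of chromosome 12, 2959330 to 3040673 on GRCh38) was 22.8, 22.5 and 19.3 FPKM with Sh-NC and 16.2, 20.7 and 19.6 FPKM with Sh-YAP1. Its log2 fold change was -0.19 (95% interval -0.46 to 0.09, adjusted p = 0.403, limma), and the groups overlapped. Without Sh-YAP1 replicate 1, the lowest library, it was -0.085, and it turned to 0.48 for the leading transcript alone and to 0.65 without the most changed transcript. The total was steadier than its parts. The leading TEAD4 transcript was 4.33, 15.2 and 1.95 FPKM with Sh-NC and 9.92, 6.66 and 7.32 FPKM with Sh-YAP1, and the second was 15.9, 1.96 and 13.8 FPKM against 3.65, 0.51 and 6 FPKM. Where one was high the other was low among the Sh-NC libraries. Another TEAD4 transcript, at 0, 0 and 1.35 FPKM with Sh-NC, reached 11.3 FPKM with Sh-YAP1 replicate 2.

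TEAD2 (ENSG00000074219, minus strand of chromosome 19, 49340595 to 49362457 on GRCh38) was 11.2, 14.7 and 11.8 FPKM with Sh-NC and 13.8, 9.15 and 11.8 FPKM with Sh-YAP1, a log2 fold change of -0.12 (95% interval -0.51 to 0.28, adjusted p = 0.724, limma). TEAD3 (ENSG00000007866, minus strand of chromosome 6, 35473597 to 35497076 on GRCh38) was 5.26, 4.48 and 5.34 FPKM with Sh-NC and 5.31, 9.52 and 4.70 FPKM with Sh-YAP1. Its log2 fold change of 0.27 (95% interval -0.29 to 0.82, adjusted p = 0.548, limma) came from Sh-YAP1 replicate 2, without which it was -0.0040. Direction could not be assigned to either gene. The 4 TEAD genes are paralogs of similar sequence, and how the quantification shared fragments between them is not given in the sources used here.

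**Figure D3:**
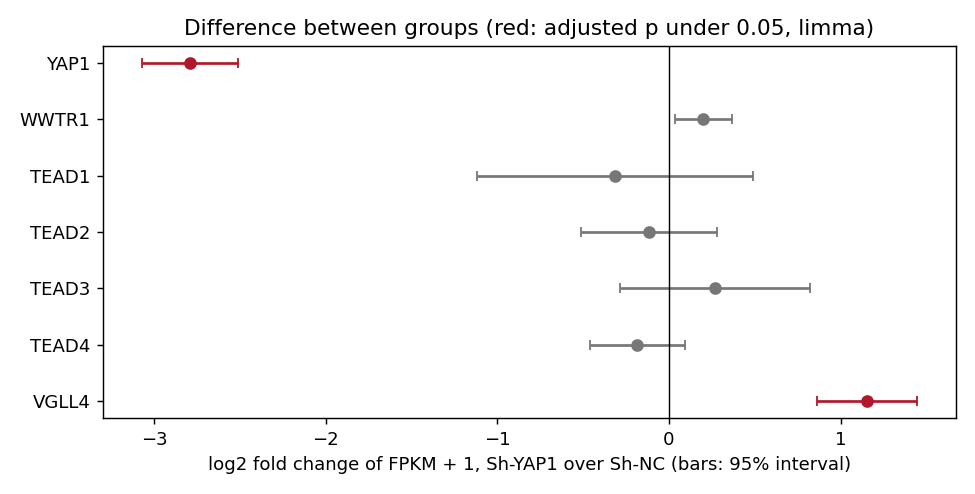
Log2 fold change of FPKM + 1 between Sh-YAP1 and Sh-NC for YAP1 and the 6 partner genes tested, with 95% intervals from limma and genes with an adjusted p under 0.05 in red. VGLL4 lies at 1.15 and YAP1 at -2.79, and the intervals of the 4 TEAD genes include 0.

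Summed, TEAD1 to TEAD4 were 73.9, 58.0 and 55.2 FPKM with Sh-NC and 61.4, 54.8 and 49.5 FPKM with Sh-YAP1. The groups overlapped, and the ratio of the means was 0.885. TEAD4 held 34.8% ± 3.92 of the TEAD total in Sh-NC and 34.6% ± 7.20 in Sh-YAP1 (SD, n = 3 each), and TEAD1 held 36.4% ± 9.51 and 32.5% ± 8.58. TEAD2 held 20.6% ± 5.11 and 21.0% ± 3.76, and TEAD3, the lowest in Sh-NC, held 8.17% ± 1.33 and 11.8% ± 4.82. These shares differed between the groups by less than the larger of their SDs.

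The order of levels can be read from the same values. In Sh-NC, WWTR1 stood first, followed by TEAD1 and TEAD4, then VGLL4, TEAD2, TEAD3 and VGLL3. TEAD1 and TEAD4 could not be ranked, since TEAD1 was the higher in 1 of 3 Sh-NC libraries. The ranges of VGLL4 and TEAD2 also overlapped in Sh-NC, although VGLL4 was the higher in 3 of 3 libraries. In Sh-YAP1, VGLL4 stood second after WWTR1 and above every TEAD gene in 3 of 3 libraries, and the ranges of neighbouring TEAD genes overlapped. Per unit of summed TEAD FPKM, VGLL4 was 0.206, 0.322 and 0.244 in Sh-NC and 0.578, 0.632 and 0.772 in Sh-YAP1. Set against the summed YAP1 and WWTR1 FPKM, VGLL4 was 0.217, 0.274 and 0.206 in Sh-NC and 0.640, 0.701 and 0.767 in Sh-YAP1, a ratio of means of 3.02. The summed YAP1 and WWTR1 FPKM per TEAD FPKM went from 1.10 ± 0.13 in Sh-NC to 0.937 ± 0.06 in Sh-YAP1 (SD, n = 3 each), with overlap between the groups. Ratios that hold YAP1 depend on the targeted gene and are given as descriptions with no test. The ratio of means was 2.28 for VGLL4 alone and 0.759 for the summed YAP1 and WWTR1 FPKM. All these ratios compare RNA levels and say nothing of protein.

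**Figure D4:**
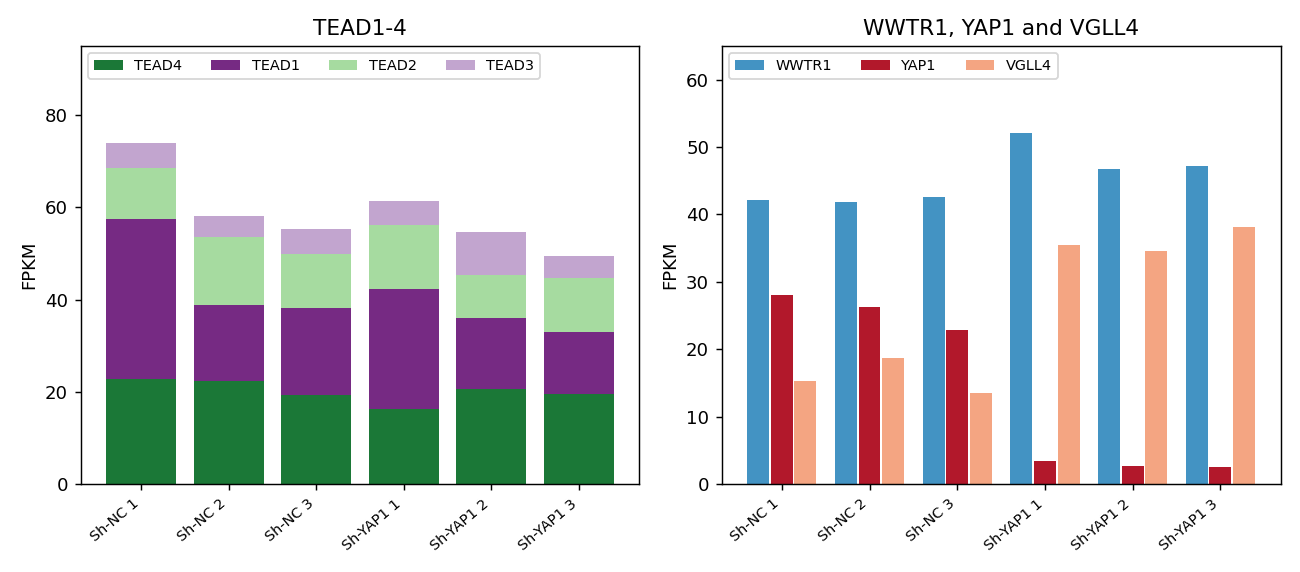
FPKM per library of TEAD1 to TEAD4 stacked (left), and of WWTR1, YAP1 and VGLL4 side by side (right). The TEAD sum lies between 49.5 and 73.9 FPKM with overlap between the groups. In Sh-YAP1 the VGLL4 bar stands above the YAP1 bar in every library, the reverse of Sh-NC. YAP1 is the targeted gene, at 3.35 FPKM or less in Sh-YAP1, while VGLL4 was at least 13.5 FPKM in Sh-NC. The reversal would follow from the fall of YAP1 without any change in VGLL4.

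VGLL3 (ENSG00000206538, minus strand of chromosome 3, 86876388 to 86991119 on GRCh38), a TEAD-binding cofactor, was close to the lower end of what was listed. It was 0.29, 0.36 and 0.33 FPKM with Sh-NC and 0.38, 0.58 and 0.83 FPKM with Sh-YAP1. The groups did not overlap (exact permutation p = 0.1), beside 29.4% of all genes tested that did not. On the log2(FPKM + 1) scale the groups differed by 0.26, or by 0.15 without Sh-YAP1 replicate 3. With a pseudocount of 0.1 or 0.01 in place of 1 the difference was 0.66 or 0.79. Its leading transcript was 0.33 ± 0.04 FPKM with Sh-NC and 0.32 ± 0.07 FPKM with Sh-YAP1 (SD, n = 3 each). The difference came from a second transcript that was listed at 0 in Sh-NC and in Sh-YAP1 replicate 1, and at 0.33 and 0.50 FPKM with Sh-YAP1 replicates 2 and 3. VGLL1 and VGLL2, the remaining genes of the family, were listed at 0 in all 6 libraries. VGLL4 was the one VGLL gene of the 4 whose level reached that of the lowest TEAD gene.

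For WWTR1 and VGLL4, the tested genes of most similar course over the 6 libraries were sought by the root mean square difference of their deviations from their own mean on the log2(FPKM + 1) scale. For VGLL4 these were CD22, with a difference of 0.0856, and GANAB, with 0.110. GANAB, which encodes a subunit of the endoplasmic reticulum glucosidase II, went from 53.6 to 135.4 FPKM. CD22 went from 7.67 to 16.4 FPKM. For WWTR1 it was MTHFD2L, with 0.0205. The measure is a description over 6 libraries of 2 groups, and genes with a similar fold change score well on it.

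Genes that YAP1, TAZ and TEAD are known to switch on were read from the same fit. Of 22 listed YAP/TAZ-TEAD targets, all were tested, 6 were called as lower in Sh-YAP1, none was called as higher, and 16 did not pass, beside 1.62% of all genes tested that were called as lower. Their median log2 fold change was -0.23, against -0.0014 over all genes tested. TGFB2, a secreted growth factor, went from 12.8 ± 0.44 to 6.74 ± 0.75 FPKM (n = 3 each, SD), a log2 fold change of -0.84 (adjusted p = 0.0123, limma). ANKRD1, a transcriptional cofactor often used to read out YAP1 activity, went from 175.9 ± 15.0 to 110.3 ± 5.35 FPKM, with a log2 fold change of -0.67. The other 4 called were AMOTL2 (-0.61), an angiomotin that binds YAP1, ARHGEF17 (-0.50), FJX1 (-0.48), and the receptor tyrosine kinase AXL (-0.35). CCN2 and CCN1, named after their values were seen, did not pass. CCN2 was at 235.1 ± 5.79 FPKM with Sh-NC and 203.1 ± 10.4 FPKM with Sh-YAP1 (log2 fold change -0.21, adjusted p = 0.130, limma), and CCN1 was at 109.0 ± 11.5 and 108.6 ± 4.03 FPKM (adjusted p = 0.999). The number of targets called was 0 without any one of Sh-NC replicates 1 and 2 and Sh-YAP1 replicates 2 and 3, to 2 without Sh-NC replicate 3 and to 1 without Sh-YAP1 replicate 1.

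The Hippo kinases and scaffolds, which hold YAP1 and TAZ in the cytoplasm, were read in the same way. Of 18 listed, 17 were tested and AMOT was too low, and 2 were called, both lower in Sh-YAP1, beside 1.62% of all genes tested. These were FRMD6, a FERM-domain protein upstream of the kinases, which went from 67.6 ± 2.48 to 44.9 ± 2.93 FPKM (SD, n = 3 each, log2 fold change -0.58, adjusted p = 0.0173, limma), and AMOTL2. Of the 17, 9 had a negative and 8 a positive log2 fold change, from -0.61 for AMOTL2 to 0.40 for MAP4K4, a kinase upstream of LATS1 and LATS2 that did not pass (adjusted p = 0.126, limma). The median of the list was -0.0026. FRMD6 was the only one called without Sh-NC replicate 3 (log2 fold change -0.61) or Sh-YAP1 replicate 1 (-0.63), and none was called without any of the other 4 libraries.

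Among 27 listed cofactors and turnover factors, such as SMAD and RUNX proteins, p160 coactivators and the kinases and ligases known to mark TAZ for degradation, 26 were tested, RUNX3 was too low, and 0 were called by limma, with a median log2 fold change of 0.01. At an unadjusted p under 0.05 there were 5 of 26, beside 21.9% of all genes tested. The lowest was CTBP2, a corepressor, at 26.6 ± 5.58 FPKM with Sh-NC and 15.7 ± 1.18 FPKM with Sh-YAP1 (SD, n = 3 each, log2 fold change -0.71, adjusted p = 0.0698, limma). It was called without Sh-NC replicate 2, where its log2 fold change was -0.89. Next in size of change were SMAD2 (0.33), FBXW11 (-0.30), a subunit of the ubiquitin ligase that marks TAZ for degradation, and the Mediator subunit MED1 (0.30), none of which passed.

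**Figure D5:**
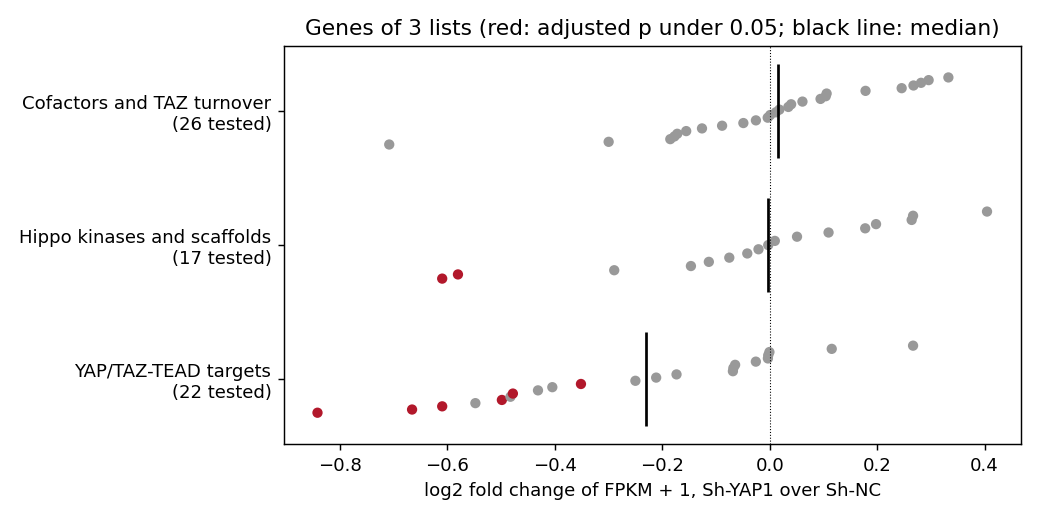
Log2 fold change of FPKM + 1, Sh-YAP1 over Sh-NC, for each tested gene of 3 lists (points, red where the adjusted p from limma is under 0.05), with the list median as a black line. The target genes have a median of -0.23, while the medians of the other lists lie at -0.0026 and 0.01.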

How the data were processed

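RNA-sequencing of 3 Sh-NC and 3 Sh-YAP1 libraries was used, grouped by their titles. The authors deposited FPKM values with 2 decimals, 229420 transcripts of 60612 gene identifiers per library, without transcript names, counts or coordinates. The submitters' processing notes name Bowtie 0.12.2, HISAT2 2.0 and the build hg19, while the quantification tool, annotation, strand setting and filters are not given in the sources used here. FPKM summed to between 467493 and 475116 per library, and the depth is unknown, so errors come from replicate spread only. Symbols were taken from Ensembl identifiers (60401 matched), and positions, transcript starts and overlapping genes from GENCODE 29 (GRCh38). Promoter windows were taken from RefSeq (GRCh38.p14) and searched for the TEAD core. No FPKM value depends on these positions or windows.

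Transcripts of a gene were summed, transformed to log2(FPKM + 1) and kept at a mean of at least 0.5 FPKM (transcripts alone: 0.1). Groups were compared with limma 3.58.1 (lmFit, eBayes with trend) in R 4.3.3, with Benjamini-Hochberg adjustment over all features, and single genes also with an exact two-sided permutation test (scipy 1.17.1). The code was tested on simulated data. Named genes were the 7 members, YAP1, VGLL1, VGLL2, the called genes of each list or otherwise up to 4 with the largest change, and the 2 genes most like WWTR1 and each called member, of which 1 is not reported here. CCN1, CCN2, MAP4K4 and the markers were named in addition, after their values were seen. Members and lists were chosen with earlier results of these data known. Alternatives covered pseudocounts, scaling, trend, filters, a replicate block, left-out libraries and other ways to form gene values.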

Additional observations from a re-analysis of the deposited data

How the results depend on the processing

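The main limits are 3 libraries per group, only 1 hairpin name given per group, unknown depth and a split of FPKM among transcripts that cannot be checked. WWTR1, VGLL4 and YAP1 kept their direction under every alternative run. TEAD1 stayed negative but came to -0.0015 without Sh-NC replicate 1, so no direction is assigned to it. WWTR1 and the TEAD genes were called under none, and VGLL4 was called under 14 of 18, with an adjusted p (limma) from 0.0102 to 0.998. The VGLL4 call was lost with the replicate number as a block (replicate block; log2 fold change 1.15, adjusted p = 0.103), without Sh-NC replicate 1 (left-out libraries gave 1.05 to 1.27), with the highest transcript alone (3.45, adjusted p = 0.193) and without the most changed transcript (0.15, adjusted p = 0.998). Under the last 2, YAP1 was also no longer called (-1.97 and -2.46), and TEAD4 turned to 0.48 and 0.65. TEAD2 turned to 0.11 without its most changed transcript, and TEAD3 then failed the filter. With libraries left out, TEAD2 ranged from -0.25 to 0.028 and TEAD3 from -0.0040 to 0.44, both turning without Sh-YAP1 replicate 2. VGLL3 was 0.66 and 0.79 with pseudocounts of 0.1 and 0.01 and -0.0081 for its highest transcript. The cause of these changes was not tested. The count of all genes called, 499, was 232 with no filter, 1 with the replicate block (2779 at an unadjusted p under 0.05) and 78 to 171 with a library left out. Members called were 0 with the block (2 at an unadjusted p under 0.05) and 0 to 1 with a library left out. Target genes called were 0 with the block (12 at an unadjusted p under 0.05) and 0 to 2 with a library left out. Hippo genes called were 1 without the trend and 1 with no filter, 0 with the block (6 at an unadjusted p under 0.05) and 0 to 1 with a library left out, and cofactors called were 0 to 1 with a library left out. Libraries with the same number were compared by how they departed from their group mean, with correlations of -0.0285, 0.0621 and 0.0042. Not every library correlated best with its own number, so the numbers were not treated as pairs. The most changed transcript and the sum of the 2 highest were added as alternatives after the values were seen.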
